A study of Mus musculus with 6 samples.

Results

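Syndecans and glypicans are the 2 families of heparan sulfate proteoglycans that sit in the plasma membrane, and 9 of their genes had a row in the deposited table of 18943 genes. They were chosen by gene symbol, the 4 syndecans Sdc1, Sdc2, Sdc3 and Sdc4 and the 5 glypicans Gpc1, Gpc2, Gpc3, Gpc4 and Gpc6, and the rule itself uses no measured value. RNA-seq had been performed on muscle stem cells (MuSCs) of 8 weeks old wild-type C57BL/6 mice, purified by FACS and held in culture for 5 days with DMSO, the solvent control, with endothelin-3 (ET-3) or with neurotensin (NT). Both ligands are peptides that act on G protein-coupled receptors, and the labels give 100 nM for each, whereas the methods of the study give higher doses that differ between them. Each group comprised 2 libraries, although the design text speaks of triplicates. All cells came from culture, so that freshly isolated quiescent MuSCs are not part of the comparison, and the study speaks of biological samples without saying whether the libraries of a group came from separate mice or cultures.

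Syndecans span the membrane once and carry heparan sulfate chains, and in some members chondroitin sulfate chains, on their extracellular part, while their short cytoplasmic tail binds PDZ proteins and kinases. Glypicans lack a cytoplasmic tail and are held in the outer leaflet of the membrane by a glycosylphosphatidylinositol anchor. The sulfated chains of both families bind growth factors such as FGF2 and HGF, Wnt and Hedgehog proteins and matrix proteins such as fibronectin, and thereby act as co-receptors. Sdc3 and Sdc4 are known as surface markers of MuSCs in adult muscle. Which of these core proteins, and which enzymes that build, edit and shed their chains, differ in mRNA level between DMSO, ET-3 and NT is the question that the comparison addresses.

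The values were normalised read counts, that is, read counts multiplied by a single factor per library and rounded to whole numbers. They summed to between 4214458 and 4600575 per library, which corresponds to between 3629256 and 5396233 reads on genes, and a value of 100 carries a counting error of between 8.84% and 10.9%. The MuSC identity given by the labels was checked with 8 marker genes, of which 7 had a mean of at least 5, among them Pax7 with 857 and 1070 in the DMSO libraries, whereas the calcitonin receptor gene Calcr lay between 0 and 3 in the 6 libraries. Over all tested genes, the squared difference within a pair of libraries was on average 0.903 times its counting variance for ET-3 and 0.965 times for NT, against 1.46 times for DMSO. Among genes with a pair mean of at least 1500 the ratio was 1.67 for ET-3, 2.45 for NT and 5.19 for DMSO. The study calls the samples of these groups biological, and p-values measure only the spread between these libraries. A fit with every treated pair averaged and counted as 1 sample, which leaves 1 residual degree of freedom, was also made because the treated pairs differed by about their counting noise over all genes, and its adjusted p is given beside the genes whose call it ended.

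Both ligands were accompanied by higher Sdc1 and Sdc4 and by lower Gpc1, Gpc4 and Gpc2 mRNA than DMSO. Under ET-3, 7 of the 8 tested members passed an adjusted p of 0.05 by limma with Benjamini-Hochberg adjustment over 13921 genes, 3 of them higher and 4 lower. The same threshold was passed by 63.7% of all tested genes, 30.6% higher and 33.2% lower. Under NT, 6 of 8 members passed, 2 higher and 4 lower, against 62.2% of all tested genes, 29.7% higher and 32.5% lower. A fold change of at least 2 together with the adjusted p was reached by 1 member under each ligand, Gpc2, which was lower, against 21.5% of tested genes under ET-3 (14.9% lower) and 20.5% under NT (13.2% lower). The share of members called 2-fold lay below that of all genes, and with 8 members no more can be read from it. The median log2 fold change of the members was -0.29 under ET-3 and -0.20 under NT, beside -0.01 for all tested genes in both comparisons. With each treated pair averaged, 1 member passed under ET-3, Gpc4, and 2 passed under NT, Gpc1 and Gpc4. The share of all tested genes that passed in this averaged fit was not counted, so its member counts cannot be set beside the shares above. Both comparisons share the DMSO libraries.

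**Figure D1:**
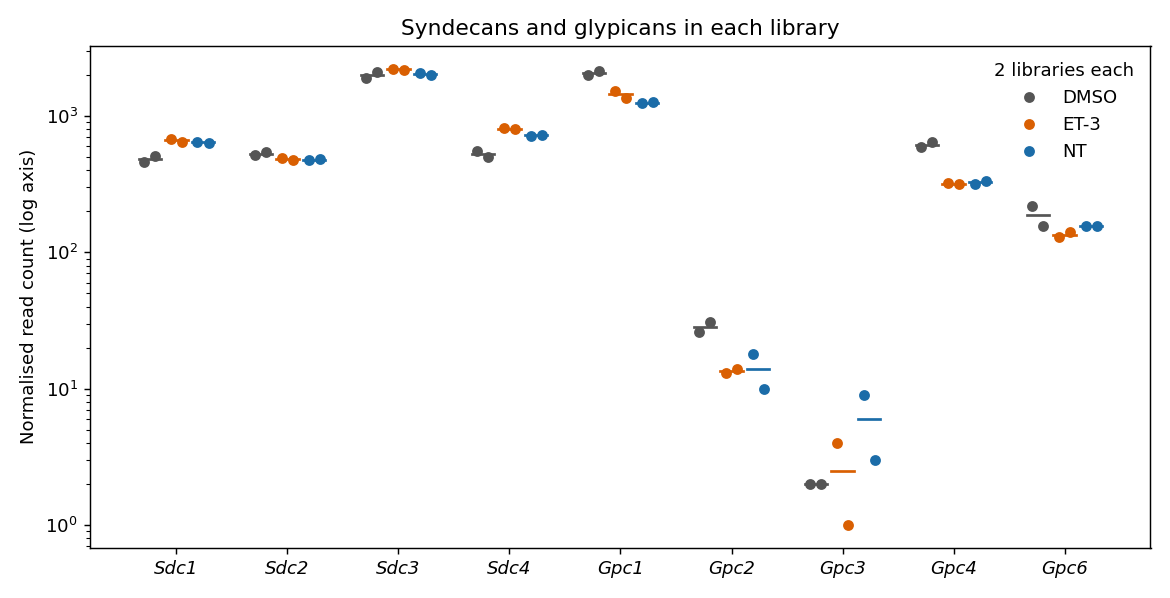
Normalised read count (log axis) of the 9 syndecan and glypican genes in each of the 6 libraries, with 2 points per group for DMSO, ET-3 and NT and a short line at the group mean. Sdc1 and Sdc4 lie higher and Gpc1, Gpc2 and Gpc4 lie lower in all treated libraries than in both DMSO libraries, while Gpc3 lies between 1 and 9.

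Sdc4 encodes a widely expressed syndecan of focal adhesions whose tail activates protein kinase C alpha. Its normalised read count was 556 and 502 in the DMSO libraries, 815 and 808 in those given ET-3, 715 and 729 in those given NT. All treated libraries lay above both DMSO libraries. Sdc4 rose 1.53-fold under ET-3 (log2 fold change 0.62 ± 0.06 SE, adjusted p = 5.86e-06) and 1.37-fold under NT (0.45 ± 0.06, adjusted p = 5.97e-05). Among all tested genes, 14.7% had a larger positive change under ET-3 and 21.8% under NT. With treated pairs averaged, adjusted p values were 0.0542 (ET-3) and 0.0812 (NT).

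Sdc1 encodes the syndecan best known from epithelia and plasma cells, which supports adhesion to matrix. The gene was read at 458 and 506 in the DMSO libraries, 677 and 651 in those given ET-3, 646 and 638 in those given NT. Again no treated library overlapped with the controls. How often libraries separated in this way over all tested genes was not counted. Sdc1 rose 1.38-fold under ET-3 (log2 fold change 0.46 ± 0.06 SE, adjusted p = 5.93e-05) and 1.33-fold under NT (0.41 ± 0.06, adjusted p = 0.000135). The increases of Sdc1 and Sdc4 passed in 15 of 16 alternative settings under each ligand, the exception being the averaged pairs, in which the adjusted p of Sdc1 was 0.0737 for ET-3 and 0.0876 for NT. In the KEGG terms of the deposited table, Sdc1 and Sdc4 are the 2 members assigned to ECM-receptor interaction, whereas all 4 syndecans are assigned to cell adhesion molecules.

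The windows upstream of the start sites of Sdc1 and Sdc4, which rose, and of Gpc2, which fell, are printed to show what the members share in sequence. The RefSeq promoter table used here, on GRCm38.p6, had entries for 6 of the 9 members, Sdc1, Sdc3, Sdc4, Gpc2, Gpc3 and Gpc4, each with 250 bases before and 50 after the start. Each printed run is read 5′ to 3′ on the strand of the gene and stops before the first annotated exon base or the RefSeq start, and capitals mark a GC box, GGGCGG or its reverse complement CCGCCC. The Sdc1 run covers chr12:8771146-8771322 on the plus strand, the Sdc4 run chr2:164443189-164443438 on the minus strand, which is intronic in the longest annotated span of the gene, and the Gpc2 run chr5:138280006-138280187 on the minus strand.
Sdc1: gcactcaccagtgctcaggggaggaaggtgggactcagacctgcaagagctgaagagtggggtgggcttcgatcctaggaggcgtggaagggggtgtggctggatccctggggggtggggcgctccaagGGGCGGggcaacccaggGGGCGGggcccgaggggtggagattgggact
Sdc4: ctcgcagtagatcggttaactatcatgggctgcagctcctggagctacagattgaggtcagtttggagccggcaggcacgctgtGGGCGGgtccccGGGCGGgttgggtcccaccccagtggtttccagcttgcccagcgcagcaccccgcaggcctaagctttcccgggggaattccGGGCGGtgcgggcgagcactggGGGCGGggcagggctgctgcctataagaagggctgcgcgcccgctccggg
Gpc2: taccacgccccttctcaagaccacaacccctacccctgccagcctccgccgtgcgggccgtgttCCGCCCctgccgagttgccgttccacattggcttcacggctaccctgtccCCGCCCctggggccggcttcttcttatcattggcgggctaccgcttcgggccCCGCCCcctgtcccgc

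On both strands, a GC box was present in all 6 of these 300-base windows, beside 35.6% of the 32817 distinct RefSeq promoters of the same length. The Sdc4 and Gpc3 windows held 4, those of Sdc1, Sdc3 and Gpc2 held 3, and that of Gpc4 held 1. The G and C content of the 6 windows ranged from 65.7% to 77.7%, against a median of 52.7% over all promoters. An E-box, CANNTG, the letters bound by MYOD1 and other basic helix-loop-helix factors, was found in 2 of the 6 windows, Sdc1 and Gpc2, beside 72.3% of all promoters. The TEAD letters CATTCC were found in the Gpc4 window alone, beside 14.7% of all promoters, and the AP-1 letters TGANTCA and the letters TATAAA in none, beside 7.81% and 13.6%. GC boxes were thus present in the windows of syndecans that rose and of glypicans that fell alike, and a match of letters is a description only. The Gpc4 window lies wholly inside the annotated gene, so its box is not upstream of the gene.

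Sdc3 encodes the largest syndecan core protein, known from neurons and MuSCs. It was read at 1918 and 2103 in the DMSO libraries, 2229 and 2187 in those given ET-3, 2079 and 1992 in those given NT. The ET-3 libraries lay just above both controls, whereas the NT libraries lay between them. Sdc3 rose 1.10-fold under ET-3 (log2 fold change 0.14 ± 0.05 SE, adjusted p = 0.0389), and its change under NT was 0.02 ± 0.05 (adjusted p = 0.764, 95% interval -0.10 to 0.13). The call under ET-3 was kept in 7 of 16 alternatives. It was lost without DMSO replicate 1 (0.07, adjusted p = 0.243), without ET-3 replicate 1 (0.12, 0.197) or 2 (0.15, 0.124), without NT replicate 1 (adjusted p = 0.0719) or 2 (0.0716), without a filter on low values (0.0692), in a fit of the 2 groups alone (0.0720), with a replicate block (0.0584) and with averaged pairs (adjusted p = 0.316). Without DMSO replicate 2 it was 0.20 (adjusted p = 0.0206), so that the size of the change depended on which control was kept. Scaling by library totals gave 0.13 under NT (adjusted p = 0.0254). The antisense gene Gm26716 shares up to 222 exonic bases with Sdc3 at a mean value of 14.2, so that reads of the shared part cannot be told apart where counting ignored strand.

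Sdc2 encodes the syndecan of mesenchymal cells and vessels. Its normalised read count was 515 and 545 in the DMSO libraries, 494 and 475 in those given ET-3, 473 and 485 in those given NT. Treated libraries lay slightly below the controls. The change of Sdc2 was -0.13 ± 0.05 on the log2 scale under ET-3 (adjusted p = 0.0579) and it fell by 0.15 ± 0.05 under NT (adjusted p = 0.0376). The call under NT was kept in 5 of 16 alternatives. Leaving out 1 library kept it only without DMSO replicate 1 (-0.19, adjusted p = 0.0312) and otherwise gave adjusted p values between 0.0522 (without ET-3 replicate 2) and 0.172 (without NT replicate 1), with 0.132 without DMSO replicate 2, 0.0523 without ET-3 replicate 1 and 0.0952 without NT replicate 2. Scaling by library totals gave -0.03 (adjusted p = 0.617), averaging of pairs gave an adjusted p of 0.203, the fit with a replicate block gave 0.0517, the upper quartile 0.0551, no filter on low values 0.0523 and a fit of the 2 groups alone 0.0526 for Sdc2 under NT. Without DMSO replicate 1, Sdc2 passed under ET-3 as well (-0.17, adjusted p = 0.0392).

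Gpc1 encodes a glypican that binds FGF2 and is abundant in muscle and brain. Its normalised read count was 1991 and 2154 in the DMSO libraries, 1521 and 1366 in those given ET-3, 1241 and 1261 in those given NT. Every treated library lay below both controls, and the NT libraries lay below the ET-3 libraries. Gpc1 fell 1.44-fold under ET-3 (log2 fold change -0.52 ± 0.06 SE, adjusted p = 2.87e-05) and 1.65-fold under NT (-0.73 ± 0.06, adjusted p = 2.91e-06). With pairs averaged, adjusted p values were 0.0515 (ET-3) and 0.0407 (NT), and in the other 15 alternatives both calls held. The protein-coding gene Ankmy1, on the opposite strand, shares up to 977 exonic bases with Gpc1, at a mean value of 9.50. Reads of the shared part cannot be separated from Gpc1 where counting ignored strand.

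Gpc4 encodes a glypican that modulates FGF, Wnt and BMP signals, and it is the member the KEGG terms of the table assign to Wnt signaling. The gene was read at 592 and 646 in the DMSO libraries, 321 and 316 in those given ET-3, 316 and 336 in those given NT. The treated libraries lay close together, at about the same level under both ligands. Gpc4 fell 1.94-fold under ET-3 (log2 fold change -0.96 ± 0.06 SE, adjusted p = 6.36e-07) and 1.90-fold under NT (-0.92 ± 0.06, adjusted p = 8.73e-07). Among all tested genes, 16.0% had a lower change under ET-3 and 14.6% under NT. Gpc4 passed in all 16 alternatives under each ligand, including the averaged pairs (adjusted p = 0.0338 for ET-3 and 0.0372 for NT).

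Gpc2, known as cerebroglycan of developing neurons, was a low-level member read at 26 and 31 in the DMSO libraries, 13 and 14 in those given ET-3, 18 and 10 in those given NT. The highest treated value lay below the lowest control value. Gpc2 fell 2.03-fold under both ligands (log2 fold change -1.02 ± 0.33 SE each, adjusted p = 0.0200 for ET-3 and 0.0203 for NT). Under ET-3 the adjusted p was 0.0732 without DMSO replicate 1, 0.130 without DMSO replicate 2, 0.0944 without ET-3 replicate 1 and 0.0704 without ET-3 replicate 2. Under NT it was 0.0732 without DMSO replicate 1, 0.133 without DMSO replicate 2 and 0.144 without NT replicate 2, where the change was -0.63. With pairs averaged it was 0.0715 and 0.0792. The annotated gene Gm43720 shares up to 915 exonic bases with Gpc2 on the same strand and had no row, so that the level of Gpc2 is uncertain.

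Gpc6 encodes a glypican of mesenchymal tissue known from growth plate cartilage. It was read at 219 and 155 with DMSO, at 129 and 141 after ET-3, and at 155 in both NT libraries. The DMSO libraries differed by 3.23 times their counting error, the widest gap of a member within a pair. Gpc6 fell 1.36-fold under ET-3 (log2 fold change -0.45 ± 0.14 SE, adjusted p = 0.0203), and its change under NT was -0.25 ± 0.14 (adjusted p = 0.161, 95% interval -0.57 to 0.07). The result rested on DMSO replicate 1. Without it the change was -0.20 under ET-3 (adjusted p = 0.141) and 0.00 under NT (adjusted p = 1), whereas without DMSO replicate 2 it was -0.70 (adjusted p = 0.00524) and -0.50 (adjusted p = 0.0136). Under ET-3 the call was also lost without ET-3 replicate 1 (0.169) or 2 (0.0822), without NT replicate 1 (0.0615) or 2 (0.0611), without a filter on low values (0.0664), in a fit of the 2 groups alone (0.0625) and with averaged pairs (0.338). Gpc3, a growth-restraining glypican that binds Hedgehog proteins, was read at 2 and 2 in the DMSO libraries, 4 and 1 in those given ET-3, 9 and 3 in those given NT, which lay below the mean of 5 needed for a test.

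**Figure D2:**
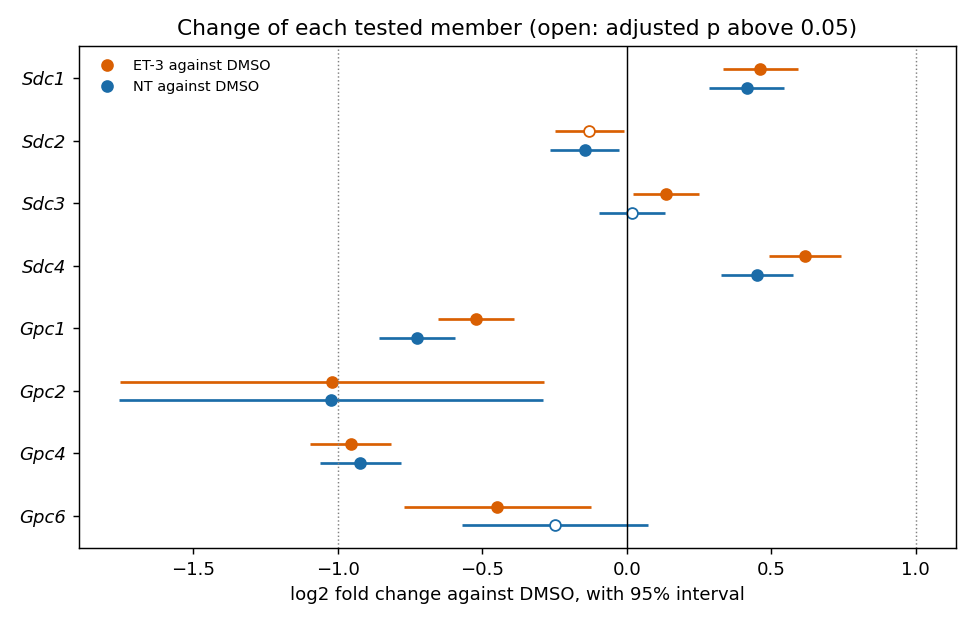
Log2 fold change of the 8 tested members against DMSO (x axis) under ET-3 and under NT, with bars for the 95% interval, filled points for an adjusted p of at most 0.05 and dotted lines at a 2-fold change. Sdc1 and Sdc4 lie right of 0 and the glypicans lie left of it, with the widest intervals for Gpc2.

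Between NT and ET-3, 0 of the 8 tested members passed an adjusted p of 0.05 by limma, against 2.69% of all tested genes. At an unadjusted p under 0.05, 3 members, Sdc3, Sdc4 and Gpc1, were lower with NT, against 19.9% of all tested genes in either direction. With voom weights on the deposited values, 1 member, Gpc1, passed. The log2 difference between NT and ET-3 was -0.20 for Gpc1 (adjusted p = 0.0962, 95% interval -0.34 to -0.07), -0.17 for Sdc4 (adjusted p = 0.132, -0.29 to -0.04) and -0.12 for Sdc3 (adjusted p = 0.24, -0.23 to -0.003). For Sdc1 it was -0.05 (-0.18 to 0.08), for Sdc2 -0.02 (-0.14 to 0.10), for Gpc4 0.03 (-0.11 to 0.17), for Gpc6 0.20 (-0.12 to 0.52) and for Gpc2 -0.003 (-0.74 to 0.73). These intervals reflect only the spread between these libraries and are not adjusted for the number of genes tested. For Gpc2 and Gpc6 they are wide.

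Levels of different genes were compared as normalised read count per kb of exonic length. With DMSO, Gpc1 had the highest level with 386 and 418, followed by Sdc3 with 320 and 351, and then Gpc4, Sdc4, Sdc2 and Sdc1. The neighbours Gpc4 (223 and 244) and Sdc4 (218 and 197) were close, with nearly touching libraries. With ET-3, Sdc3 came first with 372 and 365, followed by Sdc4 with 320 and 317 and Gpc1 with 295 and 265. With NT, the order was likewise Sdc3 (347 and 333), Sdc4 (281 and 286) and Gpc1 (241 and 244), and Gpc4 had moved from the third to the sixth place under both ligands. Sdc1 (178 and 171 with ET-3, 170 and 167 with NT) stood above Sdc2 in the treated libraries, whereas it stood below Sdc2 in the DMSO libraries (120 and 133 against 146 and 155). Gpc6 stayed between 20.1 and 34.1, and Gpc2 and Gpc3 stayed below 8 in every library. In NT the libraries of Gpc2 and Gpc3 overlapped.

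The make-up of the pool was described by summed levels, whose ratio within a library does not depend on scaling between libraries and was not tested. Syndecan levels summed to 805 and 836 per kb in the DMSO libraries, 1010 and 988 in those given ET-3, 932 and 924 in those given NT. Glypican levels summed to 650 and 693 in the DMSO libraries, 441 and 410 in those given ET-3, 391 and 399 in those given NT. Glypicans thus made up 44.7% and 45.3% of the summed level in controls, 30.4% and 29.3% after ET-3, and 29.6% and 30.1% after NT. The ratio of syndecans to glypicans was 1.24 and 1.21 in the DMSO libraries, 2.29 and 2.41 in those given ET-3, 2.38 and 2.32 in those given NT, with no overlap between treated and control libraries. Within single libraries, the level of Sdc4 was 0.566 and 0.472 times that of Gpc1 in controls, 1.09 and 1.20 times after ET-3, and 1.17 times in both NT libraries.

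**Figure D3:**
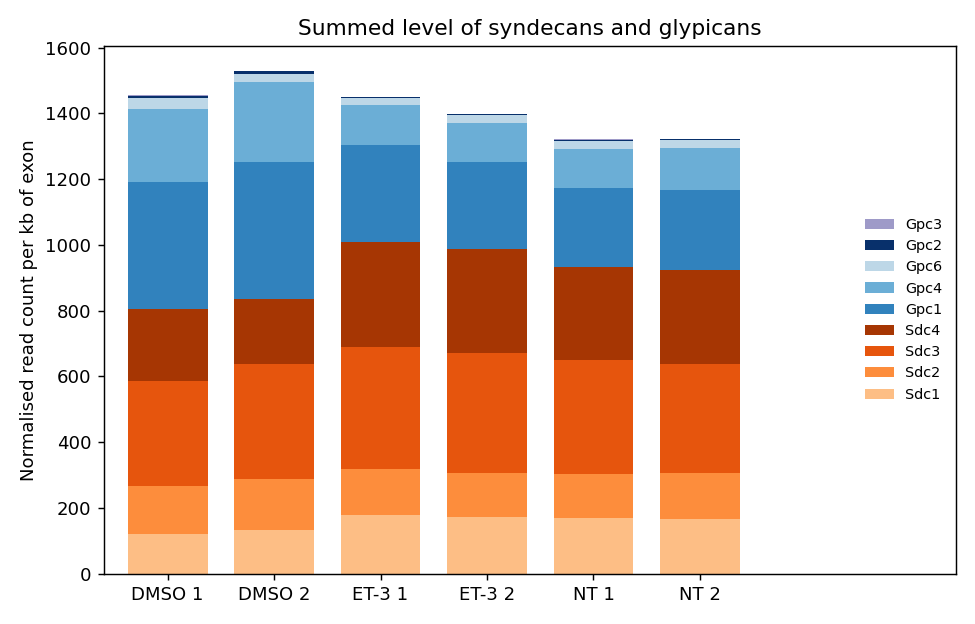
Stacked bars of the normalised read count per kb of exon of the syndecans (orange) and glypicans (blue) in each of the 6 libraries. The syndecan part is taller and the glypican part shorter in the ET-3 and NT libraries, with glypicans at 44.7% and 45.3% of the bar with DMSO and between 29.3% and 30.4% in the treated libraries.

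Genes whose profile over the 6 libraries was most like that of a member were named by the root mean square distance of log2 values centred on their mean, among genes of similar level. For Sdc4 these were Wdr43 (0.018) and Wdr46 (0.026), for Sdc1 Sh3bgrl (0.020) and Fzd1 (0.023), for Gpc1 Nes (0.041) and Cd164 (0.052), and for Gpc4 Dnajc18 (0.014) and Sccpdh (0.022). For Sdc2 they were Atp6v1c1 and Zfp91, for Sdc3 Snd1 and Eif5b, for Gpc6 Lcorl and Arhgap12, and for Gpc2 Cd28 and Gm47204 at distances above 0.14. Such likeness was not confined to the named genes. Within 0.1 lay 597 of 4677 genes compared with Sdc1, 127 of 5447 with Gpc4 and 31 of 1299 with Gpc1.

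The enzymes that make, edit and remove heparan sulfate were described from 5 lists with 55 genes, of which 43 were tested. Under ET-3, 10 rose and 18 fell past the same threshold, with a median log2 fold change of -0.11, and under NT 11 rose and 14 fell with a median of -0.06. The 28 of 43 and 25 of 43 that passed lay near the 63.7% and 62.2% of all tested genes. With pairs averaged, 9 and 4 passed, and without DMSO replicate 2, 22 and 16. The share of all tested genes that passed in these fits was not counted. Between NT and ET-3, 0 of 43 passed by limma, beside 2.69% of all tested genes. An unadjusted p under 0.05 was reached by 7 of 43, 0 of them lower with NT, beside 19.9% of all tested genes in either direction. Genes of these and the following lists other than the 18 that the naming rule selected were named after their values were seen.

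Of the 12 genes that start and polymerize the chain, 3 rose and 5 fell under ET-3 and 4 rose and 5 fell under NT. Extl1, an exostosin-like glycosyltransferase, was read at 312 and 183 in the DMSO libraries, 67 and 50 in those given ET-3, 80 and 74 in those given NT. It fell 4.08-fold under ET-3 (adjusted p = 2.99e-05) and 3.08-fold under NT (0.000151). With pairs averaged the adjusted p was 0.0851 and 0.116. The polymerase genes Ext1 and Ext2 fell by 0.21 and 0.17 under ET-3 and by 0.15 and 0.14 under NT on the log2 scale, and none of these 4 calls held when libraries were scaled by their totals or with pairs averaged (adjusted p between 0.0659 and 0.126). B4galt7, which adds the first galactose of the linker, rose by 0.73 and 0.77 on the log2 scale, with averaged-pair adjusted p of 0.0964 and 0.0952.

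Of 11 tested genes that modify the chain, 3 rose and 6 fell under ET-3 and 3 rose and 4 fell under NT. The largest decreases were those of Sulf1 and Sulf2, extracellular sulfatases that remove 6-O-sulfate from finished chains. Sulf2 was read at 300 and 335 in the DMSO libraries, 35 and 48 in those given ET-3, 30 and 39 in those given NT. Sulf1 was read at 748 and 755, 278 and 303, and 340 and 334. The treated libraries of both genes lay far below the controls. Sulf2 fell 7.57-fold and 9.03-fold (adjusted p = 6.18e-07 and 3.74e-07), and Sulf1 fell 2.58-fold and 2.23-fold (3.42e-08 and 1.15e-07), under ET-3 and NT respectively. Both passed in every alternative, with averaged-pair adjusted p between 0.0221 and 0.0245. The 6-O-sulfotransferase genes changed less and in opposite directions, with Hs6st1 lower by 0.31 and 0.25 and Hs6st2 higher by 0.37 and 0.44 on the log2 scale. With pairs averaged, the adjusted p was 0.0444 and 0.0585 for Hs6st1 and 0.0884 and 0.0742 for Hs6st2. Glce, the epimerase of the chain, fell by 0.73 and 0.65 on the log2 scale, and both calls were lost with pairs averaged (adjusted p = 0.127 and 0.152).

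In the supply of activated sulfate, 2 of 6 tested genes rose and 1 fell under each ligand. Slc26a2, the sulfate transporter of the plasma membrane, was read at 318 and 322 in the DMSO libraries, 153 and 161 in those given ET-3, 211 and 188 in those given NT. It fell 2.03-fold under ET-3 (adjusted p = 2.55e-06) and 1.6-fold under NT (4.92e-05), and passed with pairs averaged (0.0247 and 0.0333). Slc35b3, a Golgi carrier of the sulfate donor, rose 1.3-fold and 1.40-fold (adjusted p = 0.0231 and 0.00683). For Slc35b3 under ET-3, the adjusted p was 0.0997 without DMSO replicate 1, 0.149 without DMSO replicate 2, 0.169 without ET-3 replicate 2 (where the change was 0.22), 0.0505 without NT replicate 2, 0.0525 in a fit of the 2 groups alone and 0.0785 with pairs averaged. Under NT it was 0.0573 without DMSO replicate 1, 0.0857 without DMSO replicate 2, 0.0797 without NT replicate 2 and 0.0631 with pairs averaged.

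Of 9 tested genes of lysosomal breakdown and heparanase, 2 rose and 4 fell under ET-3 and 2 rose and 3 fell under NT. Gusb, the lysosomal beta-glucuronidase, was read at 288 and 297 in the DMSO libraries, 574 and 561 in those given ET-3, 556 and 579 in those given NT, and it rose 1.94-fold under both ligands (adjusted p = 1.92e-07 and 2.07e-07). Idua, the lysosomal iduronidase, was read at 63 and 60, 32 and 35, and 36 and 45, and fell 1.81-fold under ET-3 (adjusted p = 0.00351) and 1.51-fold under NT (0.0237). The call of Idua under NT was lost without DMSO replicate 1 (0.0964), without DMSO replicate 2 (0.0767), without NT replicate 1 (0.140), with library totals (-0.49, 0.0554) and with pairs averaged (0.0743). Both enzymes act on uronic acids of the chain, and their genes changed in opposite directions.

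Among 5 tested genes of shedding and release, 2 fell under ET-3 and 1 fell under NT, and the others did not pass. Mmp14, a membrane metalloproteinase able to cut syndecan ectodomains, was read at 485 and 582 in the DMSO libraries, 183 and 207 in those given ET-3, 251 and 244 in those given NT, below both controls in every treated library. It fell 2.72-fold under ET-3 (adjusted p = 5.85e-07) and 2.14-fold under NT (4.32e-06), with averaged-pair values of 0.0401 and 0.0549. The sheddase genes Adam10 and Adam17 changed by 0.02 and -0.05 on the log2 scale under ET-3 and by 0.02 and 0.06 under NT, and did not pass.

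**Figure D4:**
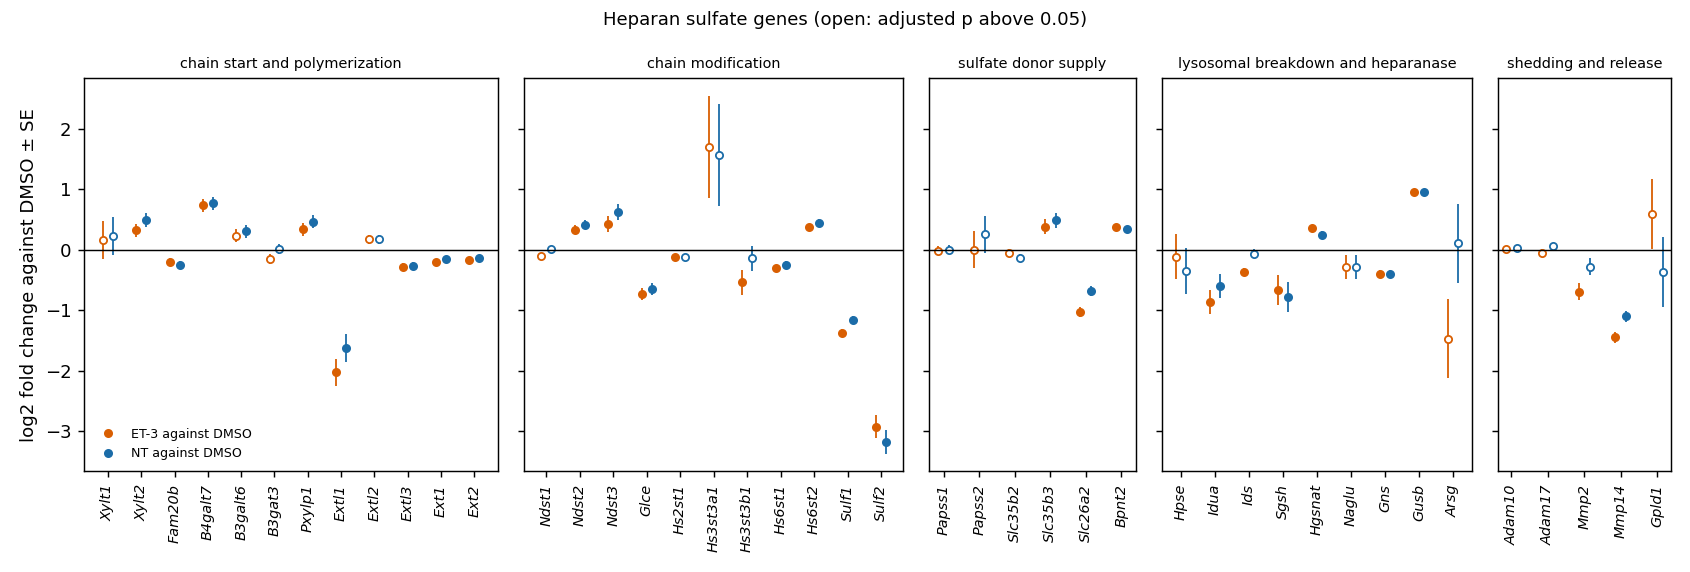
Log2 fold change against DMSO (y axis, ± SE) of the 43 tested genes of the heparan sulfate lists under ET-3 and NT, with open points where the adjusted p was above 0.05. Extl1, Sulf1, Sulf2, Slc26a2 and Mmp14 reach the lowest filled points, and most other genes lie within 1 of the zero line.

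Of the 6 tested heparan sulfate proteoglycans outside the membrane families, 3 rose and 2 fell under each ligand, with medians of -0.25 and -0.08. Among all tested genes, 63.7% passed under ET-3 (30.6% higher, 33.2% lower) and 62.2% under NT (29.7% higher, 32.5% lower). Spock2 was read at 284 and 266 in the DMSO libraries, 50 and 54 in those given ET-3, 64 and 61 in those given NT, and fell 5.21-fold and 4.35-fold (adjusted p = 1.15e-07 and 2.83e-07). Tgfbr3, betaglycan, was read at 6 and 14 in controls, 32 and 38 after ET-3 and 35 and 41 after NT, and rose (adjusted p = 0.00129 and 0.000907, with averaged pairs 0.159 and 0.151). The basement membrane proteoglycans moved apart, since Hspg2, perlecan, fell 1.63-fold and 1.64-fold while Col18a1 rose 2.05-fold and 1.99-fold.

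Among 8 tested cytoplasmic partners of syndecans, 5 rose and 2 fell under ET-3 and 4 rose and 1 fell under NT, with medians of 0.18 and 0.09. Over all tested genes, 63.7% passed under ET-3 and 62.2% under NT. Src, a kinase that phosphorylates syndecan tails, rose 1.77-fold under ET-3 from 265 and 234 to 448 and 433 (adjusted p = 4.08e-06) and 1.73-fold under NT to 421 and 441 (5.84e-06, with averaged pairs 0.0545). Tiam1, a Rac exchange factor that binds syndecans, rose 1.57-fold under NT (adjusted p = 0.00133, with averaged pairs 0.122). Its 1.29-fold rise under ET-3 (adjusted p = 0.0267) was lost without DMSO replicate 1 (0.22, adjusted p = 0.280), without ET-3 replicate 2 (0.22, 0.255), without NT replicate 1 (0.0682) or 2 (0.0684), without a filter on low values (0.0784), in a fit of the 2 groups alone (0.0720) and with averaged pairs (0.243). Sdcbp, syntenin, rose by 0.26 and 0.12 on the log2 scale, the second with an adjusted p of 0.0479, and with pairs averaged the adjusted p was 0.0543 and 0.146.

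Of 10 tested ligands that bind heparan sulfate, 6 rose and 1 fell under ET-3 and 5 rose and 2 fell under NT, with medians of 0.53 and 0.47, beside 30.6% higher and 33.2% lower of all tested genes under ET-3 and 29.7% and 32.5% under NT. Fgf6, a muscle FGF, was read at 68 and 76 with DMSO, at 0 in both ET-3 libraries, and at 0 and 1 with NT. Fgf2 was read at 20 and 11 in the DMSO libraries, 48 and 51 in those given ET-3, 56 and 58 in those given NT, and rose 3.18-fold and 3.65-fold (adjusted p = 0.000405 and 0.000198, with averaged pairs 0.120 and 0.106). Mdk, midkine, was read at 25 and 16 in controls, 58 and 43 after ET-3 and 58 and 46 after NT, and rose (adjusted p = 0.00203 and 0.00170, with averaged pairs 0.120 and 0.118).

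All 7 receptors that use heparan sulfate were tested, and 2 rose and 5 fell under ET-3 while 2 rose and 3 fell under NT, with medians of -0.43 and -0.38, beside 33.2% and 32.5% of all tested genes that were lower. Met, the HGF receptor, was read at 917 and 817 in the DMSO libraries, 2234 and 2171 in those given ET-3, 2080 and 2017 in those given NT, and rose 2.54-fold and 2.36-fold (adjusted p = 2.83e-08 and 5.29e-08). Fgfr4 was read at 934 and 1060, 323 and 365, and 402 and 346, and fell 2.89-fold and 2.66-fold (2.79e-07 and 5.28e-07). Fgfr3 was read at 211 and 201, 57 and 51, and 50 and 52, and fell 3.77-fold and 3.98-fold (1.03e-06 and 8.41e-07). Fgfr1 rose 1.49-fold and 1.33-fold, the second with an averaged-pair adjusted p of 0.0734, so that FGF receptor genes moved in both directions.

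Markers of other states and cell types moved together with these groups, and their part in the results was not tested. Of the 8 MuSC markers, 7 were tested, and 2 rose and 3 fell under ET-3 while 2 rose and 5 fell under NT, with Pax7 higher under both ligands (averaged-pair adjusted p = 0.0831 and 0.10). Vcam1 rose as well, whereas Des, Itga7 and Cdh15 fell under both ligands and Myf5 and Myod1 fell under NT. Cdh15 fell the most, with log2 fold changes of -1.80 and -1.82. The calls of Vcam1, Des, Itga7, Myf5 and Myod1 did not hold with pairs averaged. The share of all tested genes that passed was 63.7% under ET-3 and 62.2% under NT. All 6 markers of differentiating muscle fell under both ligands, where their sum was 212 and 273 (ET-3) and 281 and 200 (NT), beside 9274 and 10338 in controls. The 6 mural cell genes summed to 2356 and 2815 in the DMSO libraries, 748 and 798 in those given ET-3, 925 and 878 in those given NT, with 4 of 4 tested lower, while Myh11 and Kcnj8 lay between 0 and 4. Endothelial markers, 5 of 6 listed, summed to 27 and 12, 104 and 96, and 88 and 107, with 2 of 3 tested higher under ET-3 and 3 of 3 under NT, of which Tek gave 2 and 1, 68 and 59, and 42 and 70, while Cdh5 and Flt1 lay between 0 and 5. Fibroadipogenic markers, 4 of 6 listed, summed to 136 and 147, 64 and 76, and 82 and 90, with 1 of 3 tested higher and 1 lower under ET-3 and 2 higher and 1 lower under NT, and Dcn lay between 0 and 2 in the treated libraries. Macrophage markers, 3 of 6 listed, summed to 35 and 34, 45 and 21, and 28 and 27, and the 2 tested passed in neither comparison, while Itgam lay at 0 in the treated libraries. With pairs averaged, the calls of the endothelial marker Kdr and the fibroadipogenic marker Ly6a did not hold under either ligand. Those of Pecam1 (endothelial), Pdgfra (fibroadipogenic) and Cspg4 (mural) did not hold under NT. In these bulk libraries, fewer cells with a transcript and less of it per cell cannot be told apart.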

How the data were processed

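MuSCs cultured for 5 days with DMSO, ET-3 or NT were examined by RNA-seq, with 2 libraries per group assigned by their labels. Per the submitters' processing notes, reads were trimmed with Trimmomatic 0.38, aligned to mm10 with STAR 2.7.7a and counted per gene with featureCounts 1.6.5, and the authors used DESeq2 1.30.0. The labels name the SMART-Seq HT kit, which does not mark strand, whereas the methods of the study name a stranded mRNA kit, Reaper and other versions, and leave out reads on several genes. The deposited table holds whole numbers that are read counts multiplied by 1 factor per library (0.781 to 1.191) and rounded by the authors, and they were treated as a score and not as raw counts. The scaling is not given in the sources used here. In DMSO replicate 2 and both ET-3 libraries, 19, 24 and 13 whole numbers between 3 and 150 cannot be reached from any read count, and 0 genes lay at them.

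Positions and exonic lengths came from GENCODE M21 (GRCm38), matched by Ensembl identifier for 18920 of 18943 genes. Sdc1 lies at chr12:8771323-8793715, Sdc2 at chr15:32920723-33034935, Sdc3 at chr4:130792537-130826319, Gpc1 at chr1:92831645-92860779 and Gpc6 at chr14:116925315-117976544 on the plus strand, and Sdc4 at chr2:164424247-164443887, Gpc2 at chr5:138273655-138280005, Gpc3 at chrX:52272426-52613950 and Gpc4 at chrX:52053021-52165252 on the minus strand. Exonic length is the union of annotated exons, which can exceed that of the transcripts present. Bpnt2 is listed as Impad1.

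Log2(value + 1) of all 6 libraries entered 1 fit with limma 3.58.1 in R 4.3.3 (eBayes moderation along the mean-variance trend). A mean of at least 5 was required, which left out 5022 genes, and p-values were adjusted by Benjamini-Hochberg over 13921 genes in each of 3 comparisons. Folds in the text are 2 raised to the fitted log2 fold change on the log2(value + 1) scale, which understates changes of low genes. In simulated data with 200 changed genes for ET-3 against DMSO, 198 were recovered with the correct sign, beside 2 false calls among 13902 genes. The planted changes were larger than those of any member. They lay only in genes with a mean of at least 20 and used 1 fixed spread. The simulation thus does not bear on the member calls. Tables were joined with pandas 2.3.3 and plots drawn with matplotlib 3.10.9 under Python 3.11.15.

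The rule for the members uses gene symbols alone, but the family and the gene lists were proposed with earlier results of these data known. All members were named, and of each pathway list the genes past both thresholds under both ligands, or where there were none the 2 with the largest absolute mean change. Alternatives covered the filter, the pseudocount (0.5 and 5), library totals, upper quartile, voom weights, a replicate block, fits of 2 groups, averaged treated pairs and each library left out, 16 in all. One further marker list is not reported here.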

Additional observations from a re-analysis of the deposited data

How the results depend on the processing

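Of 254 member changes against DMSO under alternatives, 207 kept direction and side of the threshold, 42 lost the threshold, 3 gained it and 2 turned sign. The single 2-fold call under each ligand, Gpc2, fell to 0 with a mean of at least 20, with pseudocount 5, with library totals and with treated pairs averaged, and the count of such calls ranged from 0 to 1 with a library left out under both ligands, the 1 under ET-3 without DMSO replicate 1 being Gpc4 (-1.02). With a mean of at least 20, Gpc2 was not tested. Members past the adjusted p numbered 1 under ET-3 and 2 under NT with treated pairs averaged, where fewer samples enter, and 4 to 6 and 4 to 5 with a library left out. Between NT and ET-3, 1 member passed with voom weights. Heparan sulfate genes past the adjusted p numbered 9 and 4 with pairs averaged, and 21 to 26 under ET-3 and 16 to 27 under NT with a library left out. The share of all tested genes that passed was not counted in these alternatives. Small differences turned sign. Sdc3 under NT ranged from -0.0474 to 0.0854 with a library left out. Between NT and ET-3, Sdc2 was 0.00763 with library totals and -0.0445 to 0.012 with a library left out, Gpc4 was -0.0113 to 0.077, and Gpc2 was 0.0063 with pseudocount 5, 0.0186 with library totals, 0.000237 with the upper quartile, 0.0489 with pairs averaged and -0.40 to 0.39 with a library left out. The cause was not tested. Library totals moved the median of all genes under NT from -0.01 to 0.10, which raises every value by about as much. Deviations of same-numbered libraries correlated at -0.014, -0.081 and 0.025. These correlations cannot decide whether replicate numbers pair the libraries, since the treated pairs differed by about their counting noise. The replicate block changed the calls of Sdc2 under NT (limma adjusted p = 0.0517) and Sdc3 under ET-3 (0.0584). It left 6 members past the threshold under ET-3 and 5 under NT. Depth limits Gpc2, whose values lay between 10 and 31, and left Gpc3 untested.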
